A study of Mus musculus with 4 samples.

Results

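The genes described here are 9 components and targets of the canonical WNT pathway, Axin2, Lef1, Tcf7, Sp5, Nkd1, Tcf7l1, Ctnnb1, Apc and Gsk3b, of 19751 gene symbols on the array. They were chosen by name, with earlier results of these data known. Every array probe whose accession maps to one of these symbols was taken, 15 probes in all. Signals were set side by side in parthenogenetic haploid embryonic stem cells (ESCs) and parthenogenetic diploid ESCs of the mouse, with 2 arrays per group, one for line 1 and one for line 2 of each ploidy. All 4 samples were female ESCs without a paternal genome, and each total RNA was labelled with Cy3 and hybridised to its own 1-colour Agilent array. The genetic background, passage and culture medium are not given in the sources used here, so whether the medium held a GSK3 inhibitor is not known. Of the 9 genes, 8 were well above background on all 4 arrays with at least 1 probe, and Axin2 was not.

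In the canonical pathway a secreted WNT protein binds a Frizzled receptor and an LRP co-receptor. Without it, a destruction complex of Axin, APC, casein kinase 1 and the kinase GSK3 marks beta-catenin for degradation, and with it beta-catenin accumulates and joins TCF/LEF proteins on DNA. In mouse ESCs this relieves the repression that TCF7L1 places on genes of the naive pluripotent state, and inhibitors of GSK3 are widely used to keep ESCs in that state. Axin2, Sp5, Nkd1, Lef1 and Tcf7 are known target genes of the pathway, and several of them feed back on it.

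Values are log2 of the processed signal minus the array's 75th percentile, so 0 is that percentile itself, and a difference is haploid minus diploid. For a probe to be tested, both haploid arrays or both diploid arrays had to show it well above background, and the brightest such probe stood for its gene, which left 17963 features. Their median difference was 0.02. Cut into 10 classes by brightness, the dimmest features had a median of -0.17 and the brightest one of 0.22. ESC identity was checked with 8 markers, all measured. Pou5f1 differed by -0.028, Sox2 by 0.087, Zfp42 by 0.33, Dppa5a by 0.35, Utf1 by -0.26, Fgf4 by 0.10, Tdgf1 by -0.51 and Klf4 by 0.013, and none passed the test described next. Their summed level was 197 and 199 in haploid cells, against 195 and 170 in diploid cells, in units of the 75th percentile. Per the series' design text the samples of a group come from separate experiments, and every p-value rests on the spread within 2 such pairs of arrays.

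No gene of the 9 passed the test at an adjusted p of 0.05 (limma, Benjamini-Hochberg over all features), where 0.111% of all features passed (0.0835% higher and 0.0278% lower in haploid cells). Lef1 was the furthest apart, 2.54-fold lower in haploid cells, and it had the only difference of the 8 whose 95% interval left out 0. It was also the only one beyond 1 log2 unit, as 1.14% of all features were in that direction and 1.95% in the other. At an unadjusted p under 0.05 it was 1 of 8, beside 11.7% of all features. Haploid and diploid values did not overlap for 4 of the 8 genes, 3 lower and 1 higher in haploid cells, and 47.0% of all features did not overlap either (20.9% lower, 26.0% higher). The median of the 8 differences was -0.03, against 0.02 over all features.

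**Figure D1:**
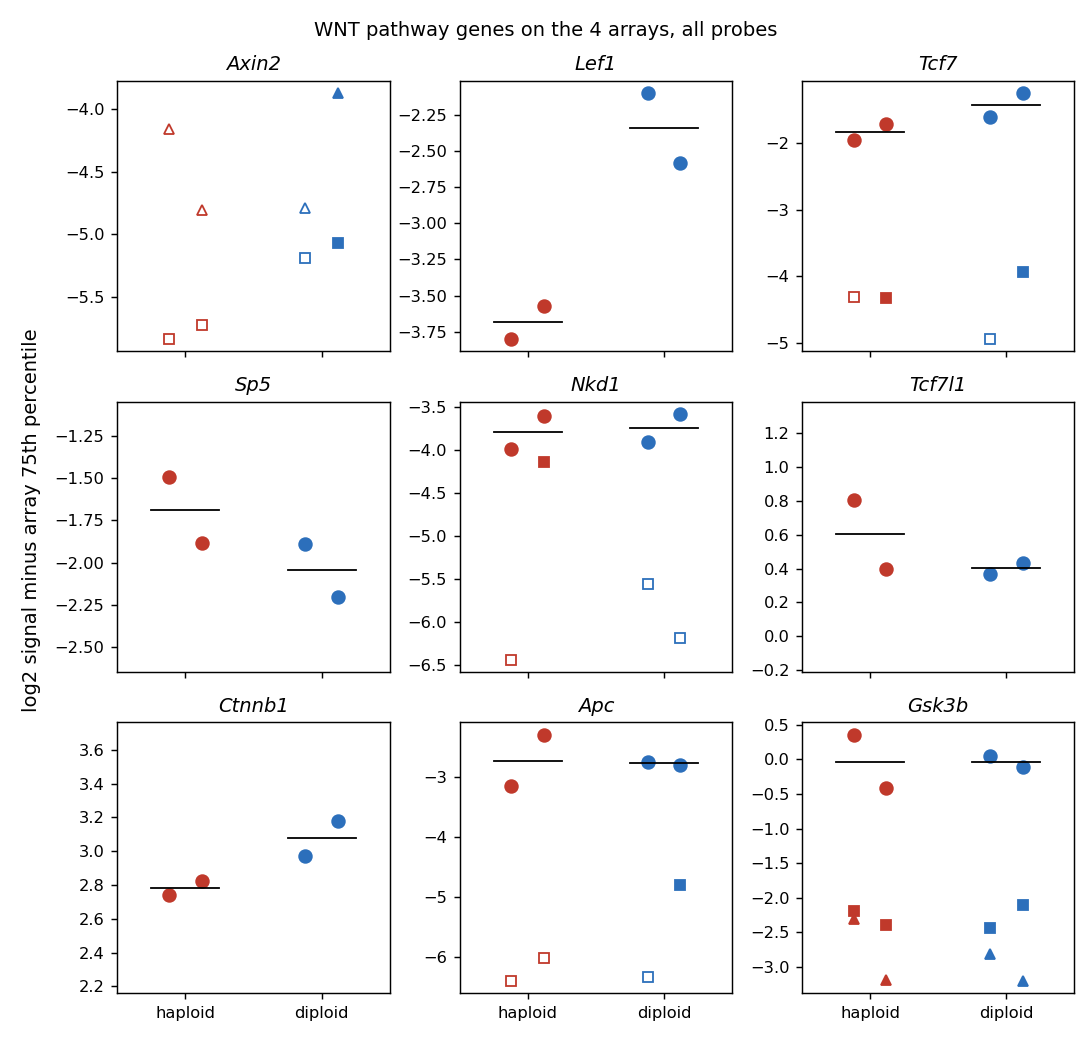
Log2 signal minus the array's 75th percentile (vertical axis, its own range in each panel) for the 9 genes in haploid (red) and diploid (blue) cells, replicate 1 left of replicate 2 within a group. Circles are the probe that stood for the gene and black lines its group means, other marker shapes are further probes, and open markers were not well above background. Lef1 has both haploid values below -3.5 and both diploid values above -2.6.

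Lef1 encodes a TCF/LEF factor that binds DNA with beta-catenin and is itself induced by the pathway in many tissues. Its single probe read -3.80 and -3.57 in haploid cells, against -2.10 and -2.58 in diploid cells. Both haploid values lay below both diploid values by at least 0.99, a wider gap than the 0.23 between the haploid arrays and the 0.48 between the diploid arrays. The difference was -1.35 ± 0.22 (SE, n = 2 per group, 95% interval -1.89 to -0.81, limma adjusted p = 0.117, unadjusted p = 0.000792), which was the 93rd lowest of 17963 and ranked 122nd by p. In intensity units the probe gave 37.7 and 46.5 in haploid cells and 144 and 152 in diploid cells, not far above the lowest signals called well above background, which were 16.7 to 25.4. With 1 array left out in turn the difference stayed between -1.59 and -1.11 and did not pass. It passed when limma's variance prior followed intensity and was fitted robustly (adjusted p = 0.00814), where 2.37% of all features did, and with probes well above background on all 4 arrays (adjusted p = 0.0465), and it was -0.60 when spots of high local background were left out before normexp, a background correction.

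The other factors of the family differed less. Tcf7, which encodes TCF1, read -1.96 and -1.72 in haploid cells and -1.60 and -1.25 in diploid cells. The groups did not overlap, by 0.12, less than the gap within either group. Its difference was -0.41 ± 0.20 (95% interval -0.90 to 0.08, limma adjusted p = 0.489). A second Tcf7 probe was well above background on only 1 array of each group and differed by 0.11, the opposite sign. Tcf7l1, the main TCF factor of mouse ESCs and largely a repressor there, read 0.81 and 0.40 in haploid cells and 0.37 and 0.43 in diploid cells. Haploid replicate 1 stood above the other 3 arrays, which lay close together, so the groups overlapped. Its difference was 0.20 ± 0.20 (95% interval -0.29 to 0.69, limma adjusted p = 0.706), and it was -0.0033 without haploid replicate 1. Tcf7l2, the remaining TCF gene, differed by 0.17 ± 0.17 (limma adjusted p = 0.700) and is named outside the rule for named genes. Whether Lef1 differed from the other TCF genes in its response was not tested.

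The targets other than the TCF genes did not share a direction. Sp5, a zinc finger repressor induced by WNT in the embryo and in ESCs, read -1.49 and -1.89 in haploid cells and -1.89 and -2.20 in diploid cells. Haploid replicate 2 and diploid replicate 1 were nearly equal, 0.0047 apart. The difference was 0.36 ± 0.22 (95% interval -0.17 to 0.88, limma adjusted p = 0.545). Nkd1, which restrains Dishevelled, read -3.98 and -3.60 in haploid cells and -3.91 and -3.58 in diploid cells, with both groups spanning the same range. It differed by -0.05 ± 0.22 (95% interval -0.58 to 0.48, limma adjusted p = 0.939). A second Nkd1 probe was well above background on haploid replicate 2 alone, with 31.3 intensity units there, 6.05 on haploid replicate 1, and 13.1 and 12.4 on the diploid arrays.

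Axin2, a negative feedback gene and a standard readout of beta-catenin activity, could not be compared. One probe gave 9.21 and 10.5 intensity units in haploid cells and 16.9 and 26.9 in diploid cells, and the other gave 29.4 and 19.7 in haploid cells and 22.2 and 61.8 in diploid cells. Both were well above background on diploid replicate 2 alone, and neither passed the filter. That array was also the brightest, with a 75th percentile of 907 intensity units against 526 to 617 on the others. With no filter the brighter probe differed by -0.15, and without diploid replicate 1, where it entered the test, by -0.61 (limma adjusted p = 0.552). The dimmer probe measured -0.65.

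**Figure D2:**
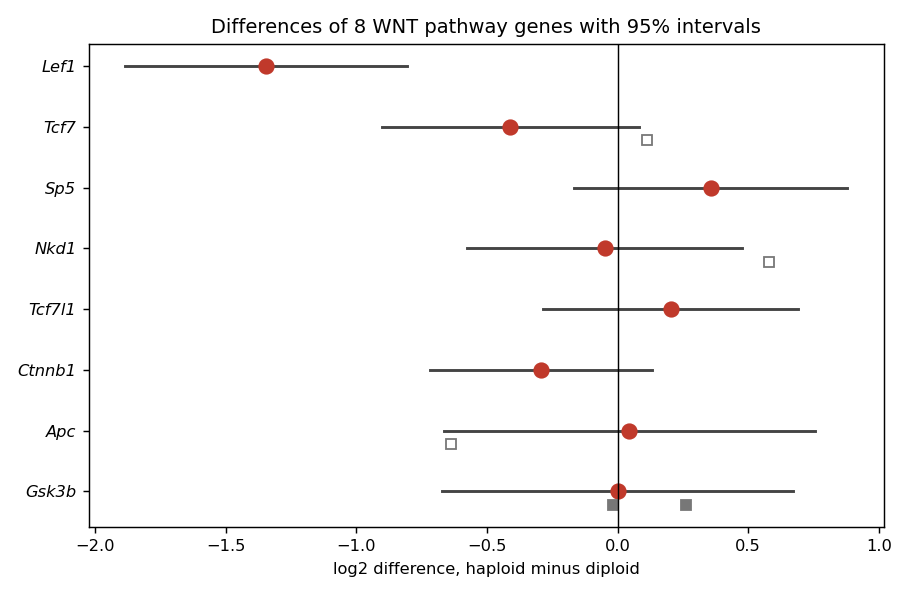
Log2 difference, haploid minus diploid (horizontal axis), of the 8 measured genes with 95% intervals from limma (n = 2 per group). Grey squares are further probes of the same gene, open where a probe did not pass the filter. The interval of Lef1, -1.89 to -0.81, leaves out 0, and the other 7 include it.

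Promoter sequences are shown for Sp5 and Lef1 because theirs are the windows among these genes that hold the core letters which TCF/LEF proteins bind. The search took CTTTGAA or CTTTGAT, as well as the sequences CTTTGTA or CTTTGTT, on both strands, in windows of 250 bases before to 50 bases after a RefSeq transcription start (build GRCm38.p6). Of 13 windows for 8 of the genes (a window for Apc was not analysed here), 2 held a match, and 16.9% of all 32851 windows did. The Sp5 window at chr2:70474673-70474972 (plus strand) holds 2 matches, and 1.94% of windows hold 2 or more. The capitals mark CTTTGTT read on the minus strand, starting 222 bases before the start site, and CTTTGAT on the plus strand, starting 104 bases before it. The Lef1 window at chr3:131156044-131156343 (plus strand), at one of its 4 listed starts, has CTTTGTA on the minus strand in capitals, 147 bases before the start site. The sequences run 5′ to 3′.
Sp5: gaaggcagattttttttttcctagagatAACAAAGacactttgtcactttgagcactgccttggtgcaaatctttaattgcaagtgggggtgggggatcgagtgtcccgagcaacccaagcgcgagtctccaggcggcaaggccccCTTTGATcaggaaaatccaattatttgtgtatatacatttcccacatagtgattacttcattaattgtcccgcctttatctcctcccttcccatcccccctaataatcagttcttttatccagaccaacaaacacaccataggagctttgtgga
Lef1: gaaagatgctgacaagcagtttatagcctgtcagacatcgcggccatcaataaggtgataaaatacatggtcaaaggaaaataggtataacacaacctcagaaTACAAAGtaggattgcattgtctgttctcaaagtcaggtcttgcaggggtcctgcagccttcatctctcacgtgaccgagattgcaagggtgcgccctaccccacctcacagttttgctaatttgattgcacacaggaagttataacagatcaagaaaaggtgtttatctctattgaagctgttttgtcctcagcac
The windows of Axin2, Tcf7, Nkd1, Tcf7l1, Ctnnb1 and Gsk3b did not hold these letters. A match is a description of the letters only.

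The 95% intervals of the core components Ctnnb1, Apc and Gsk3b all included 0. Ctnnb1 encodes beta-catenin, which carries the signal into the nucleus and also links cadherins to actin. It read 2.74 and 2.82 in haploid cells and 2.97 and 3.18 in diploid cells. The groups were apart by 0.15, less than the 0.21 between the diploid arrays. The difference was -0.29 ± 0.18 (95% interval -0.72 to 0.13, limma adjusted p = 0.541), beside a median of 0.09 for features of its brightness class. Apc, the scaffold of the destruction complex, read -3.17 and -2.31 in haploid cells and -2.76 and -2.80 in diploid cells, so that the haploid arrays lay on either side of both diploid arrays. Its difference was 0.04 ± 0.29 (95% interval -0.67 to 0.76, limma adjusted p = 0.959). A second Apc probe was well above background on diploid replicate 2 alone.

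Gsk3b, the kinase that phosphorylates beta-catenin, was measured by 3 probes. The brightest read 0.35 and -0.42 in haploid cells and 0.05 and -0.12 in diploid cells. Its difference was -0.0005 ± 0.28 (95% interval -0.67 to 0.67, limma adjusted p = 0.999), and the other probes differed by -0.02 ± 0.20 and 0.26 ± 0.32. The haploid arrays were 0.77 apart in Gsk3b and 0.86 apart in Apc, in opposite directions, and leaving out haploid replicate 1 or haploid replicate 2 moved Gsk3b to -0.39 or 0.39 and Apc to 0.47 or -0.38. The intervals of Apc and Gsk3b reach 0.67 below 0 and 0.67 or more above it, so these arrays do not show that the levels were equal.

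**Figure D3:**
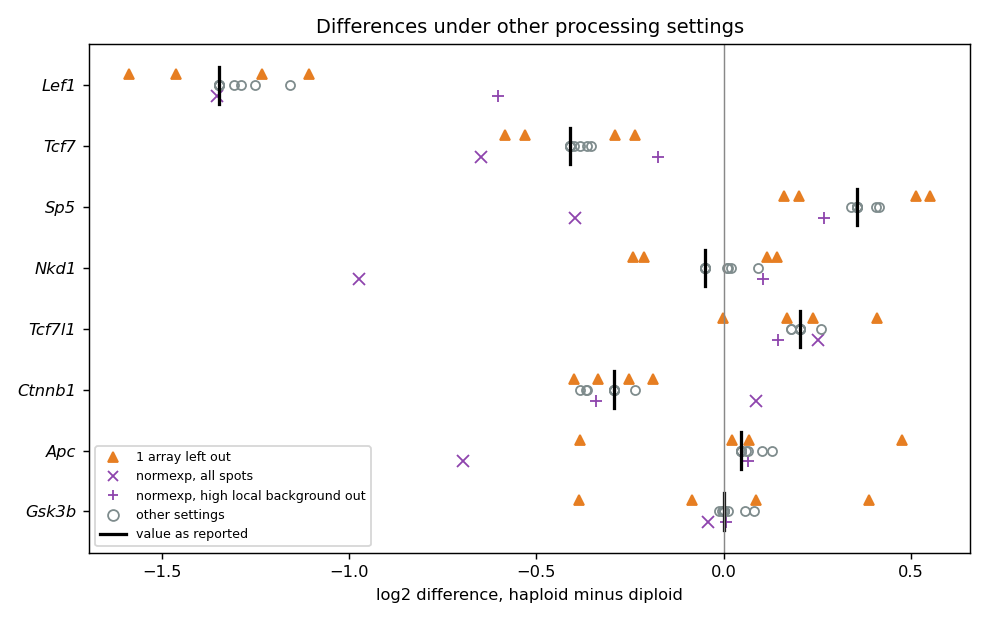
Log2 difference, haploid minus diploid (horizontal axis), of the 8 measured genes as reported (black bars), with 1 array left out (triangles), with normexp on all spots (crosses) or with spots of high local background left out first (plus signs), and under the other settings (circles). Lef1 and Tcf7 stay below 0 in every setting drawn, while Sp5, Nkd1, Tcf7l1, Ctnnb1, Apc and Gsk3b each cross 0 in at least 1. Several settings leave the difference as it was, and leaving out 1 array cannot carry groups without overlap across 0.

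The rest of the pathway was followed in lists ordered by role. No gene of these lists passed the test in either direction, beside the 0.111% of all features that did. The largest differences were in ligands, with 7 of 19 WNT genes measured. Wnt10a read -2.66 and -2.62 in haploid cells, against -6.24 and -4.98 in diploid cells. It was well above background on both haploid arrays and on diploid replicate 2, and its difference was 2.97 ± 0.39 (limma adjusted p = 0.0740), or 1.96 with values raised to a common floor. Wnt6 read -1.74 and -2.28 in haploid cells, against -3.56 and -3.63 in diploid cells, and was well above background on all 4 arrays. It was 2.99-fold higher in haploid cells (1.58 ± 0.22, limma adjusted p = 0.0831). Wnt9a, well above background on both haploid arrays and 1 diploid array, differed by 0.56 ± 0.24 (limma adjusted p = 0.434). Wnt10a and Wnt9a entered the test and the list's median through the haploid arrays alone, where they were higher. Among probes well above background on all 4 arrays, which left both out, the median of the ligands was 0.0015. The other 4 measured ligands lay between -0.14 and 0.14, and the list's median was 0.14, or -0.26 without diploid replicate 1, where more ligands passed the filter. Wnt10a and Wnt6 both moved with the background correction. With normexp on all spots Wnt10a and Wnt6 turned to -0.09 and -0.13, and with spots of high local background left out first they were 1.06 and 0.93 and passed (limma adjusted p of 0.0146 and 0.0438). Both also passed with limma's intensity-following, robust variance prior (adjusted p of 0.000362 and 0.0015), Wnt10a with scaling on the median (adjusted p = 0.0142) and Wnt6 among probes well above background on all 4 arrays (adjusted p = 0.0310).

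Genes for ligand release and the R-spondins that enhance signalling had 3 of 6 members measured, with a median of -0.31. That median was -0.58 without haploid replicate 1, -0.038 without haploid replicate 2 and -0.084 when spots of high local background were left out before normexp. Wls, which carries WNT proteins to the cell surface, differed by 0.36 ± 0.17, Porcn, which attaches their lipid, by -0.35 ± 0.22, and Rspo1 by -0.31 ± 0.23 (limma adjusted p from 0.468 to 0.607).

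Receptor genes lay mostly below 0, 11 of 15 measured, with a median of -0.27, while 46.8% of all features lay below 0. Among the 10 Frizzled genes 9 were measured, 8 of them below 0, and the groups did not overlap for 5 in that direction and for 1, Fzd10, in the other, where 20.9% and 26.0% of all features did so. Fzd1 read -3.68 and -4.14 in haploid cells, against -3.08 and -2.65 in diploid cells, a difference of -1.04 ± 0.24 (limma adjusted p = 0.195). Fzd8 differed by -1.05 ± 0.33 and Fzd4 by -0.61 ± 0.22 (limma adjusted p of 0.308 and 0.369). Fzd8 cleared background on a single haploid array, so it entered the test and the counts above through the diploid arrays alone. Features of the brightness class of Fzd8 had a median of -0.17, those of the class of Fzd1 one of -0.08 and those of the class of Fzd4 one of -0.03. With spots of high local background left out before normexp, Fzd1 was -0.36, Fzd8 -0.21 and Fzd4 -0.25. Diploid replicate 2 was the highest array for Fzd1, Fzd4 and Fzd8. Without it the median of the receptor list was -0.08, and without diploid replicate 1 it was -0.56.

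Antagonists and the destruction complex were centred near 0. Of 16 antagonists 8 were measured, with a median of 0.03. Sfrp2, a secreted decoy for WNT proteins, differed by 0.34 ± 0.17, Znrf3, a ubiquitin ligase that removes Frizzled receptors, by -0.31 ± 0.23 and Apcdd1 by 0.41 ± 0.36 (limma adjusted p from 0.492 to 0.659). All 15 cytoplasmic genes were measured, with a median of 0.005. Axin1, the scaffold that APC works with, read 0.17 and 0.21 in haploid cells and 0.47 and 0.91 in diploid cells, a difference of -0.50 ± 0.21. Dvl3, a Dishevelled gene, differed by 0.52 ± 0.20 and Csnk1e, a casein kinase gene, by 0.41 ± 0.17, with its other probe at 0.09 (limma adjusted p from 0.387 to 0.425 for these 3).

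Nuclear partners of beta-catenin and TCF had 11 of 14 members measured and a median of 0.05. Tle2, of the Groucho family of co-repressors, differed by -1.11 ± 0.38 and cleared background on a single haploid array. It was -0.57 with values raised to a common floor, -0.57 without haploid replicate 1, -0.12 when spots of high local background were left out before normexp, and -1.65 without haploid replicate 2, where it passed (limma adjusted p = 0.0445). Tle1 of the same family differed by -0.27 ± 0.17, with other probes at -0.10 and -0.69, and Tle5 by 0.33 ± 0.19, with its other probe at 0.03 (limma adjusted p from 0.340 to 0.556 for these 3).

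Further target genes went both ways. Ascl2, a WNT target of intestinal stem cells that is also needed in the placenta and is imprinted, read 1.12 and 1.49 in haploid cells, against 0.40 and 0.57 in diploid cells, a difference of 0.82 ± 0.20 (limma adjusted p = 0.215). Cdx1, a homeobox gene induced by WNT in ESCs, differed by 0.65 ± 0.27 and Ccnd1, the cyclin D1 gene, by -0.67 ± 0.21 (limma adjusted p of 0.433 and 0.304). With the intensity-following, robust variance prior Ascl2 and Ccnd1 passed (limma adjusted p of 0.00923 and 0.0354). Of the 8 genes of this list 5 were measured, and T, Cdx2 and Cdx4 were not. Among genes that TCF7L1 represses in ESCs, Esrrb differed by 0.20 ± 0.17, Klf2 by 0.31 ± 0.22, Tfcp2l1 by 0.27 ± 0.17 and Nanog by -0.37 ± 0.17 (limma adjusted p from 0.468 to 0.650). Their median was 0.24. Nanog was by far the dimmest of these genes. It read -3.09 and -2.95 in haploid cells and -2.72 and -2.58 in diploid cells, while the others read 2.16 or more. With spots of high local background left out before normexp Nanog was -0.17, Esrrb 0.15, Klf2 0.25 and Tfcp2l1 0.25. With normexp on all spots Nanog was -0.88. How well the Nanog probe reads its transcript was not tested. Features of the brightness class of Esrrb and Klf2 had a median of 0.22, those of the class of Tfcp2l1 one of 0.036 and those of the class of Nanog one of -0.03.

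**Figure D4:**
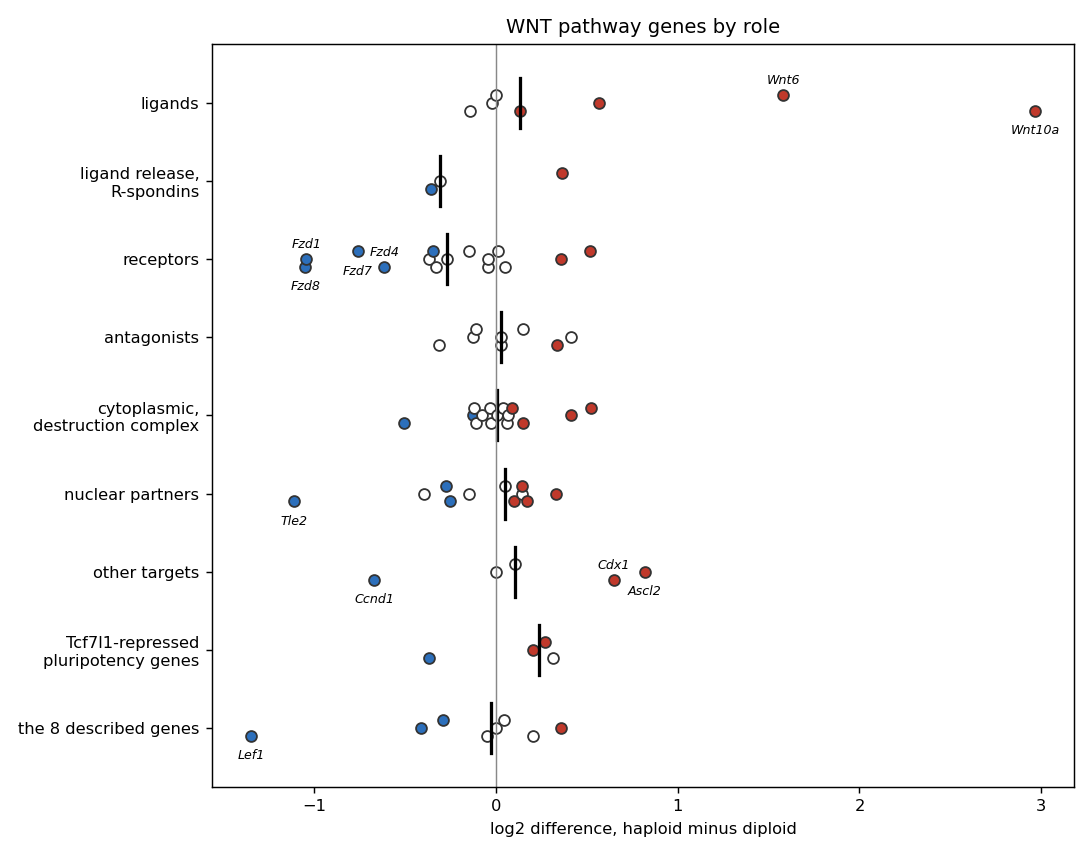
Log2 difference, haploid minus diploid (horizontal axis), of each measured WNT pathway gene by role (rows), with the row's median as a black bar. Filled points had no overlap between haploid and diploid arrays (red higher, blue lower in haploid cells), open points overlap, and genes beyond 0.6 either way are named. Wnt10a and Wnt6 lie far to the right, and Lef1, Tle2, Fzd8 and Fzd1 furthest to the left.

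Markers of other cell types were compared between the same groups. None passed the test in either direction, beside the 0.111% of all features that did, and 46.8% of all features lay below 0. Of 10 fibroblast markers, listed because ESC cultures may contain feeder fibroblasts, 9 were measured and 6 lay above 0, and their summed level was 12.8 and 9.85 in haploid cells, against 7.79 and 5.85 in diploid cells, in units of the 75th percentile. S100a4 differed by 2.27 ± 0.51 and Thy1 by 1.11 ± 0.31, while Col3a1, Dcn and Lum differed by -0.39, -0.38 and -0.29 and Pdgfrb was not measured. S100a4 read 0.02 and -0.26 in haploid cells, against -1.55 and -3.23 in diploid cells, which were 1.67 apart. It differed by 0.91 with normexp on all spots. All 4 measured trophectoderm markers of 7 lay above 0, with a summed level of 6.96 and 6.75 in haploid cells, against 3.03 and 2.91 in diploid cells. Krt7 among them (0.40 ± 0.26, limma adjusted p = 0.569) passed the filter through the haploid arrays alone, and its groups overlapped. The sum mostly follows Krt18, by far the brightest, which read 2.62 and 2.61 in haploid cells, against 1.43 and 1.33 in diploid cells. Krt18 differed by 1.23 ± 0.17 and Gata3 by 1.02 ± 0.19, and Elf5, Hand1 and Tfap2a were not measured (limma adjusted p from 0.0782 to 0.261 for the 4 named markers). Primitive endoderm, mesendoderm and neuroectoderm markers had 2 of 6, 2 of 5 and 3 of 4 members measured, with medians of -0.86, -0.36 and -0.21. Gata4 differed by -0.77 ± 0.28 and Gata6 by -0.96 ± 0.43, both above background on 1 haploid array, Eomes by -0.43 ± 0.17, Gsc by -0.29 ± 0.18, Nes by 0.45 ± 0.19 and Sox1 by -0.26 ± 0.20 (limma adjusted p from 0.375 to 0.626). Their summed levels were 0.0462 and 0.0910 in haploid cells, against 0.0996 and 0.137 in diploid cells, for primitive endoderm, 0.625 and 0.706 against 0.817 and 0.880 for mesendoderm, and 1.37 and 1.23 against 1.03 and 1.19 for neuroectoderm. Both measured primitive endoderm genes passed the filter through the diploid arrays alone, so their median and haploid sums rest partly on background. The neuroectoderm sum mostly follows Nes, its brightest gene, while that list's median was below 0. In RNA from whole cultures, fewer cells of a type and less RNA per cell cannot be told apart. The part of these cell types in the values of Lef1, Wnt6, Wnt10a or Ascl2 was not tested.

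The genes whose pattern over the 4 arrays lay nearest to that of Lef1, by the root mean square distance of values centred on each gene's mean, were 4932438H23Rik (0.065), Ankrd34a (0.095) and Hcar2 (0.12). The haploid values of 4932438H23Rik and Hcar2 lay below the lowest signals called well above background on those arrays, so their distances rest partly on background. With 4 arrays such a ranking describes these values only.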

How the data were processed

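Per the labels' protocols, 0.2 ug of RNA per sample was labelled with Cy3, and the arrays, all on 1 slide, were read with Agilent Feature Extraction 11.0.1.1 (a version that the headers record). The deposited scanner files hold the processed signal, a linear intensity after the software's background subtraction. The authors' value table also holds linear intensity (column medians 28.4 and 28.3 in haploid, 28.4 and 28.3 in diploid cells); its scaling is not stated, and it served as an alternative.

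Control spots and spots marked as outliers (121 to 168 of 43020 per array) were left out, no spot was saturated, and repeated spots were averaged. On the 4 arrays 54.2%, 60.2%, 55.6% and 65.4% of spots were well above background; the number of arrays limits the precision. Accessions were matched to RefSeq symbols (GRCm38.p6; 66.1% of 39429 probes). The array's design names mm9, so gene coordinates are not given, and promoter windows carry their own build.

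Groups were compared with limma 3.58.1 (R 4.3.3; lmFit, eBayes, two-sided), Benjamini-Hochberg over all 17963 features, threshold 0.05; of these 20 passed, 15 higher and 5 lower in haploid cells. The scanner files hold the median but not the mean spot signal, so normexp (offset 50) used the median. The fit was tested on simulated data. Python 3.11.15 with pandas 2.3.3 read the files.

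Members and lists were chosen with earlier results of these data known. Named genes are the 9 members, the 3 of each role list with the smallest p and all 4 TCF7L1-repressed genes. The ESC markers, the 2 genes of each other marker list with the smallest p and the 3 genes nearest Lef1 are named too. Tcf7l2, Fzd10, further fibroblast and trophectoderm markers and the genes of the closing observations fall outside this rule. Alternatives changed the background correction, scaling, source, filter, floor, probe rule, variance prior and replicate block, and left out each array.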

Additional observations from a re-analysis of the deposited data

How the results depend on the processing

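The arrays limit these results to differences well beyond the spread of 2 samples, and for dim probes such as those of Axin2 the background limits them further. The 8 measured genes gave 128 comparisons over 16 alternatives. Of these, 108 kept direction and side of the threshold, 18 changed sign and 2, both of Lef1, passed. Changes of filter, floor, variance prior or replicate block left each of these differences as it was, so only its p could change there. Leaving out 1 array cannot turn the sign of a probe whose groups do not overlap. The count is therefore no measure of how stable the directions are. Causes were not tested unless stated. With normexp on all spots no feature passed (0), the median of all features was -0.10, and Sp5 turned to -0.40, Ctnnb1 to 0.086, Apc to -0.69, Wnt10a to -0.092, Wnt6 to -0.13, Wnt9a to -0.80, Wls to -0.19, Porcn to 0.056, Sfrp2 to -0.23, Apcdd1 to -0.56, Tle1 to 0.0052 and Gata3 to -0.55. Medians there were -0.52 for the members, -0.50 for ligands, -0.39 for antagonists, 0.15 for cytoplasmic genes, 0.25 for nuclear partners, -0.25 for other targets and 0.64 for TCF7L1-repressed genes. With spots of high local background left out before normexp 122 features passed, medians were -0.069 for receptors and -0.00089 for nuclear partners, and Nkd1 turned to 0.10 and Gsk3b to 0.0047. With quantile normalization 7 passed, nuclear partners were at -0.024, TCF7L1-repressed genes at 0.094 and Nkd1 at 0.012. With cyclic loess 0 passed, the members' median was 0.051, nuclear partners -0.014, TCF7L1-repressed genes 0.10, Nkd1 0.091 and Gsk3b 0.012. Scaling on the median gave 83 calls, 0.062 for cytoplasmic genes, 0.11 for nuclear partners, 0.0075 for Nkd1 and 0.057 for Gsk3b. The value table gave 4 calls, -0.0064 for nuclear partners, 0.10 for TCF7L1-repressed genes and 0.018 for Nkd1. With no filter 0 passed (more probes tested) and nuclear partners were at 0.12. With probes well above background on all 4 arrays 82 passed, 1 of them a member (Lef1), and the ligand median was 0.0015 (fewer ligands). A common floor gave 0 calls, the mean over probes -0.058 for cytoplasmic genes and 0.081 for Gsk3b, and trend and robust fitting 425 calls, 1 a member (Lef1). The replicate number as a block gave 2 calls and no member (Lef1 adjusted p = 0.148, limma); deviations of samples with the same number correlated at 0.048, so the numbers were not taken as pairs.

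With 1 array left out, calls ran from 0 (without diploid replicate 1) to 439 (without haploid replicate 2), with 242 without haploid replicate 1 and 60 without diploid replicate 2, and no member passed. Medians ran from -0.29 to -0.032 for members, -0.56 to -0.080 for receptors, -0.26 to 0.28 for ligands, -0.37 to 0.17 for antagonists, -0.029 to 0.067 for cytoplasmic genes, -0.050 to 0.052 for nuclear partners, -0.080 to 0.37 for other targets and 0.11 to 0.31 for TCF7L1-repressed genes. Ligand release genes ran from -0.58 to -0.038. Some of the genes named, the neighbours of Wnt6 and Wnt10a aside, changed sign. Among members these were Nkd1 (-0.24 to 0.14), Tcf7l1 (-0.0033 to 0.41), Apc (-0.38 to 0.47) and Gsk3b (-0.39 to 0.39). The others were Apcdd1 (-0.15 to 0.97), Pou5f1 (-0.15 to 0.096), Sox2 (-0.0035 to 0.18) and Klf4 (-0.25 to 0.27), with Col3a1 (-0.88 to 0.10), Lum (-0.69 to 0.10), Vangl1 (-0.00054 to 0.28) and Scrib (-0.024 to 0.099). Without haploid replicate 2, Wnt10a, Wnt6 and Tle2 passed (limma adjusted p of 0.0332, 0.0114 and 0.0445), and Wnt10a also did without diploid replicate 2 (adjusted p = 0.0458). Calls under the alternatives were listed for the members, the role list genes named by the rule, S100a4, Thy1, Krt18, Gata3 and Dact3, not for the other named genes. Among these genes other than the members, Wnt10a, Wnt6, S100a4 and Krt18 passed with spots of high local background left out before normexp. Wnt10a passed with scaling on the median, and Wnt6 and Krt18 with probes well above background on all 4 arrays. With trend and robust fitting Wnt10a, Wnt6, Ascl2, Ccnd1, Krt18 and Dact3 passed.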

Other observations

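Wnt6 and Wnt10a, the ligand genes with the largest differences, are next to each other on mouse chromosome 1, with 0 protein-coding genes between them in the RefSeq table. Of the 8 nearest protein-coding genes, 4 on each side, 3 were measured, with Stk36 at 0.14 ± 0.19, Ttll4 at 0.11 ± 0.18 and Fev at -0.54 ± 0.23 (limma adjusted p from 0.442 to 0.835). These neighbours were looked up after the values of Wnt6 and Wnt10a were seen.

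Genes of planar cell polarity and the Dact family were listed after the main values were seen. Of 16 genes 11 were measured, 0 passed the test, and the median was 0.10. Dact3, which binds Dishevelled, read -1.53 and -1.08 in haploid cells, against -2.21 and -2.29 in diploid cells, 1.92-fold higher in haploid cells (0.94 ± 0.21, limma adjusted p = 0.185). It was 0.11 with normexp on all spots, and it passed with trend and robust fitting (limma adjusted p = 0.0238). The core polarity genes Vangl1 and Vangl2 differed by 0.14 ± 0.19 and 0.22 ± 0.19 (adjusted p of 0.785 and 0.650), with a second probe each at 0.60 ± 0.18 and 0.08 ± 0.17, and Scrib by 0.04 ± 0.17 (adjusted p = 0.940).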
